A study of Mus musculus with 6 samples.

Results

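The genes described here are 9 p53 target genes that lie outside the classical arrest, death, feedback, metabolic and repair branches of the response to radiation. They are Phlda3, Zmat3, Ei24, Zfp365, Ephx1, Dcxr, Rps27l, Ptp4a3 and Ak1, and they were taken by gene symbol from the expression tables. Each symbol belonged to 1 of the 47719 gene identifiers, and all 9 were among the 13818 genes with a mean of at least 1 FPKM that were tested. FPKM, fragments per kilobase of transcript scaled to the number of mapped fragments, is a level that is already corrected for gene length, so it can be compared between genes.

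RNA was sequenced from whole prostates of 6 mice of the strain B6.129S4-Trp53tm3.1Tyj/J, whose p53 can carry histidine in place of an arginine of its DNA-binding domain (R270H) in the germline, so every cell type of the gland carries the allele. Wildtype mice 39 and 41 (Trp53+/+) carried 0 mutant alleles, heterozygous mice 37 and 40 (Trp53R270H/+) carried 1, and homozygous mice 47 and 49 (Trp53R270H/R270H) carried 2, where the numbers name the animals. All groups, the wildtype mice included, were about 3 months old, received 5 Gy to the whole body and were dissected 6 h later. With no unirradiated mouse, these data compare genotypes after radiation and do not measure the response to radiation itself.

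The protein p53 is a transcription factor that is stabilised when DNA is damaged and binds, as a tetramer, to paired decamers near its target genes. R270H replaces a residue that touches DNA, and the mutant protein binds most of these elements poorly. It can also join wildtype subunits in mixed tetramers, which is why the number of mutant alleles is of interest. Beyond arrest and apoptosis, p53 controls genes that temper growth signalling, RNA processing, membrane proteins, detoxifying enzymes and ribosomal proteins. Most of the genes below, though not Zfp365 and Ak1, belong to these groups.

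Trp53 itself was at 17.3 and 21.4 FPKM in the wildtype, 20.9 and 19.6 in the heterozygous and 20.8 and 18.3 in the homozygous pair of mice, a log2 fold change of 0.02 between homozygous and wildtype mice (SE, the standard error, 0.15, limma adjusted p = 0.958). A gene's level does not tell the alleles apart. The number of fragments relative to mouse 39, read from the steps between low values, lay between 0.790 (mouse 47) and 1.07 (mouse 49). The prostate marker Pbsn, probasin, was at 7329 to 11512 FPKM in 5 mice and at 257 FPKM in homozygous mouse 47, which therefore stands apart, and results are also given without it.

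Between wildtype and homozygous mice, 5 of the 9 genes fell, namely Ephx1, Phlda3, Zfp365, Zmat3 and Ei24, by a fitted 2.21-fold to 5.23-fold. Dcxr and Rps27l had lower means in homozygous mice without passing the test, and Ptp4a3 and Ak1 had higher ones, also without passing. The test was limma's on log2(FPKM + 0.1) with Benjamini-Hochberg adjustment over all tested genes and a threshold of 0.05. Log2 fold changes below are on that scale unless alternatives are named. By this test 0.261% of the tested genes were lower in homozygous mice (36 genes) and 0.123% were higher (17 genes), and the higher ones held 0 of the 9. With quantile normalisation 22 genes were lower and 20 higher, with mouse 41 left out 28 were lower and 49 higher, and with mouse 49 left out 75 were lower and 21 higher. The median log2 fold change was -1.41 over the 9 genes and -0.04 over all tested genes. Leaving out any mouse lowered the count of 5, to 1 without mouse 39, 2 without mouse 41, 0 without mouse 37, 40 or 47, and 2 without mouse 49. In RNA from a whole gland, fewer cells that express a gene and less RNA per cell cannot be told apart.

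**Figure D1:**
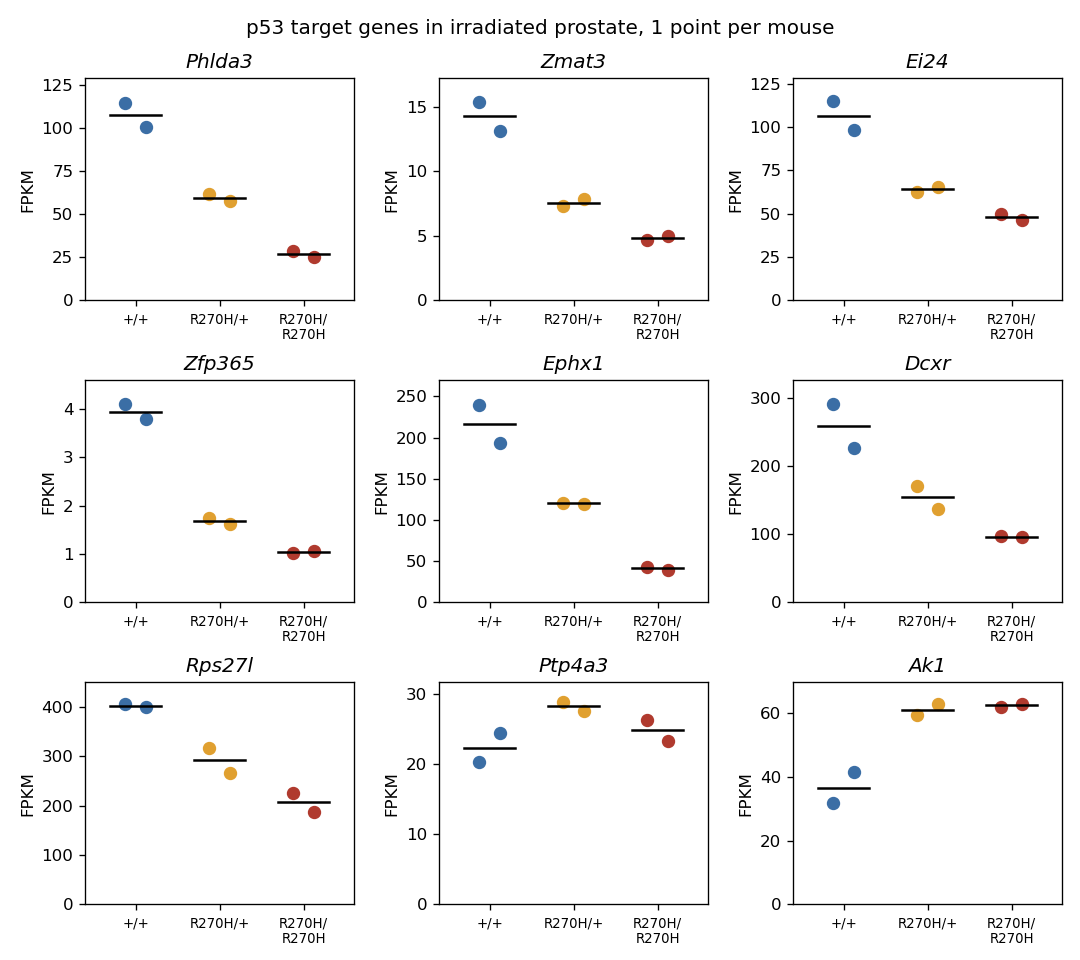
FPKM of each of the 9 genes (vertical axes, from 0) in the prostate of every mouse, by Trp53 genotype (wildtype +/+, heterozygous R270H/+, homozygous R270H/R270H). Each point is 1 mouse and each line the mean of 2. In 7 genes the 3 genotypes step down without overlap, as they do in 4.98% of all tested genes. Phlda3, for example, goes from 115 and 100.3 to 28.6 and 25.0 FPKM, whereas Ptp4a3 and Ak1 do not step down.

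Phlda3 encodes a small pleckstrin homology protein that holds back the kinase Akt. It lies at chr1:135766119-135769136 on the plus strand of GRCm38 and has 2 exons. The wildtype mice were at 115 and 100.3 FPKM, the heterozygous at 61.4 and 57.5 and the homozygous at 28.6 and 25.0. The genotypes did not overlap, and each step down was larger than the gap between the mice of a genotype. Group means were 107 ± 10.1, 59.5 ± 2.71 and 26.8 ± 2.53 FPKM (SD, n = 2 each). Homozygous against wildtype mice gave a log2 fold change of -2.0 (SE 0.13, limma adjusted p = 0.0126), which left 24.9% of the wildtype mean.

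Zmat3 encodes a zinc finger protein that binds RNA and acts on splicing and transcript stability. The gene spans chr3:32334792-32366014 on the minus strand, with 6 exons. It was expressed far below Phlda3. Wildtype mice had 15.4 and 13.1 FPKM, heterozygous mice 7.29 and 7.86, and homozygous mice 4.67 and 5.02. Again no value of one genotype fell within the range of another. Between homozygous and wildtype mice the log2 fold change was -1.53 (SE 0.14, limma adjusted p = 0.0291), a fitted fall of 2.90-fold. The means were 14.3 ± 1.58 and 4.84 ± 0.243 FPKM in wildtype and homozygous mice (SD, n = 2 each).

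Ei24 encodes a membrane protein of the endoplasmic reticulum that was first found as a transcript induced by etoposide. It lies at chr9:36779159-36797393 on the minus strand and has 11 exons. Its FPKM was 115 and 98.2 with 0 mutant alleles, 62.8 and 65.6 with 1 and 49.9 and 46.4 with 2. The groups were separate, with a wider step from wildtype to heterozygous than from heterozygous to homozygous mice in log2 fold change (-0.73 and -0.41), although the test against the midpoint, given further on, did not find the 2 steps to differ. Ei24 started at nearly the level of Phlda3 in wildtype mice but kept 45.2% of it in homozygous mice (log2 fold change -1.14, SE 0.13, limma adjusted p = 0.0477). The antisense gene Gm26787 shares 3519 bases with Ei24 and was at 0 to 0.310 FPKM. The libraries were stranded, but the strand setting of the quantification is not given in the sources used here.

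The window around the RefSeq start of Ei24 (250 bases before and 50 after, GRCm38.p6) held 1 exact copy of the p53 half-site, the decamer of the p53 response element. It is shown because it was the one exact match to 10 of 10 bases among the genes that fell, of which 4 had a window. The half-site is in capitals, at chr9:36797335-36797344 in the first annotated exon, within chr9:36797325-36797354 read 5′ to 3′ on the minus strand.
Ei24: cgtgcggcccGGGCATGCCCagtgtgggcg
An exact half-site was present in 8.36% of 32851 such windows over 27025 genes, so a match of this kind is common, and it is a description of the sequence rather than of binding.

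Zfp365 encodes a zinc finger protein that has been linked to the stability of the genome under replication stress. It is at chr10:67886103-67912662 on the minus strand, with 5 exons. It was the least expressed of the 9. The wildtype mice were at 4.10 and 3.80 FPKM, the heterozygous at 1.74 and 1.62 and the homozygous at 1.013 and 1.056, with no overlap. Replicates lay closer together than for any other of the 9 genes, with a pooled SD of 0.06 on the log2 scale against a median of 0.19 over all tested genes. Homozygous mice differed from wildtype mice by a log2 fold change of -1.83 (SE 0.22, limma adjusted p = 0.0477), where the SE is wide because limma draws it toward that of other genes of low level, and 26.2% of the wildtype level was left. At levels this low the pseudocount of 0.1 matters, and the fitted 3.57-fold change is smaller than the share left in the mean FPKM would give.

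The promoter window of Zfp365 held a pair of half-sites that matched the p53 consensus at 18 of 20 bases, with a spacer of 12 bases. The pair is printed because it was the closest match among the windows of the genes that fell, and its 2 decamers are in capitals. It covers chr10:67912716-67912747, upstream of the annotated gene, within chr10:67912702-67912761 on the minus strand (GRCm38.p6).
Zfp365: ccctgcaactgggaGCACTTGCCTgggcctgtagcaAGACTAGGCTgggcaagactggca
Pairs with at least 18 matching bases were found in 4.09% of all windows. Spacers of up to 13 bases were allowed, and both decamers had to keep the fixed C and G of the consensus.

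Ephx1 encodes microsomal epoxide hydrolase, an enzyme of the endoplasmic reticulum that opens reactive epoxides to diols. The gene spans chr1:180976210-181020904 on the minus strand and has 9 exons. Wildtype mice had 239 and 194 FPKM, heterozygous mice 121 and 120 and homozygous mice 42.9 and 39.5. The 2 heterozygous values nearly coincided, and the 3 genotypes were widely separated, with means of 217 ± 32.1, 120.5 ± 0.680 and 41.2 ± 2.43 FPKM (SD, n = 2 each). Ephx1 had the largest fall of the 9 genes, with a log2 fold change of -2.39 (SE 0.15, limma adjusted p = 0.0118) and 19% of the wildtype mean left in homozygous mice. Among all tested genes it ranked 6 by p-value in this comparison, just ahead of Phlda3 at 8. The pseudogene Gm36961 overlaps it by 80 bases and was listed at 0 in every mouse.

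Dcxr encodes dicarbonyl and L-xylulose reductase, which reduces reactive carbonyls and sugars. It is a compact gene of 8 exons at chr11:120725399-120727281 on the minus strand. It reached 292 and 227 FPKM in wildtype mice, against 171 and 138 in those with 1 mutant allele and 98.0 and 95.4 in those with 2. The genotypes did not overlap, but the wildtype mice differed from each other more than for most of the 9 genes, and the pooled SD of 0.20 on the log2 scale was the widest of the 9. The log2 fold change of -1.41 between homozygous and wildtype mice (SE 0.19, 95% interval -1.88 to -0.95) did not pass the test over all genes (limma adjusted p = 0.0612). The fit on the number of alleles, described further on, did call Dcxr.

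Rps27l encodes a ribosomal protein that closely resembles S27. It lies at chr9:66946086-66949516 on the plus strand, with 4 exons. It had the highest level of the 9. Wildtype mice had 406 and 400.2 FPKM, heterozygous mice 317 and 267, and homozygous mice 226 and 188. The order held in all 6 mice without overlap, although mice of a mutant genotype lay farther apart, relative to the steps, than in Phlda3. Against wildtype mice the homozygous mice gave a log2 fold change of -0.97 (SE 0.18, 95% interval -1.40 to -0.53), with 51.4% of the wildtype mean left, and it did not pass the test (limma adjusted p = 0.116).

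Reads from Rps27 could in principle be counted as Rps27l, since the coding sequences of both are 252 bases long and 76.2% identical. The longest stretch they share is 11 bases. Rps27 was listed at 7.83 to 10.2 FPKM over the 6 mice, and the further copy Rps27rt at 3.94 to 7.21 FPKM. As listed, both levels were low beside that of Rps27l, but reads assigned to the wrong copy would change these listed levels too. The log2 fold change of Rps27 was -0.00 (limma adjusted p = 0.992). Whether reads were assigned to the wrong copy was not tested.

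Of the windows of the 9 genes, that of a second RefSeq start of Rps27l held the closest match to a full p53 element, with 19 of 20 bases and no spacer. The element is printed for that reason, in capitals, and lies at chr9:66946296-66946315 in intron 1 of the main transcript, with its first base at -117 from that second start. The stretch shown is chr9:66946276-66946335 on the plus strand (GRCm38.p6).
Rps27l: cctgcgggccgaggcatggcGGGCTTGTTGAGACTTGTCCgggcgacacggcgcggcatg
A pair with 19 or more matching bases, counted as for Zfp365, was held by 0.627% of all windows. That share is per window, while the element shown was the closest match in 11 windows. The window that held this element had 2 exact half-sites. The best pairs of the other genes with a window matched at 15 bases in Phlda3, 16 in Ei24, 17 in Dcxr, 16 in Ephx1 and 14 to 16 in the 4 windows of Ak1. No window was found in the table for Zmat3 or Ptp4a3.

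Ptp4a3 encodes the tyrosine phosphatase PRL-3, which sits at the plasma membrane and is known for its part in cell migration. It is at chr15:73723145-73758766 on the plus strand, with 6 exons. The wildtype mice were at 20.2 and 24.4 FPKM, the heterozygous at 28.9 and 27.6, and the homozygous at 26.3 and 23.2. Homozygous and wildtype values overlapped, and the heterozygous mice were the highest. Homozygous against wildtype mice gave 0.15 on the log2 scale (SE 0.14, limma adjusted p = 0.592), and its 95% interval from -0.19 to 0.50 leaves room for a rise of up to that size but not for a fall like those above. The small nuclear RNA gene Gm22106 within it was listed at 0 in every mouse.

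Ak1 encodes the cytosolic adenylate kinase that balances ATP, ADP and AMP and is abundant in skeletal muscle. It lies at chr2:32621758-32635058 on the plus strand, with 6 exons. Wildtype mice had 31.7 and 41.4 FPKM, heterozygous mice 59.2 and 62.8, and homozygous mice 62.0 and 62.8. Both mutant genotypes lay above both wildtype mice and overlapped each other. Against wildtype, the log2 fold change was 0.78 for homozygous mice (SE 0.16, limma adjusted p = 0.128) and 0.75 for heterozygous mice (limma adjusted p = 0.302), so neither passed. Homozygous against heterozygous mice gave 0.03, with a 95% interval from -0.35 to 0.42.

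Genes of skeletal muscle had higher levels in the same mice as Ak1. A list of 15 such genes summed to 2108 and 3031 FPKM in the wildtype pair, 5804 and 6079 in the heterozygous pair and 7164 and 6135 in the homozygous pair, and none of the 15 was at 0 in any mouse. Relative to the wildtype mean, that sum was 0.820 and 1.18, then 2.26 and 2.37, then 2.79 and 2.39, whereas Ak1 was 0.867 and 1.13, then 1.62 and 1.72, then 1.70 and 1.72. Of all 13818 tested genes, 2483 were at an unadjusted p under 0.05 between homozygous and wildtype mice, lower or higher. Of 14 list members tested, 0 passed the adjusted test in homozygous mice, and 13 were higher at that unadjusted p. The median log2 fold change of the 14 was 1.37. Their range ran from 0.85 in Myh2 to 1.76 in Actn3, both of fast fibres, and the most abundant were Acta1 (mean 1109 FPKM) and Ckm (mean 743 FPKM). The part of skeletal muscle RNA in the Ak1 values was not tested.

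**Figure D2:**
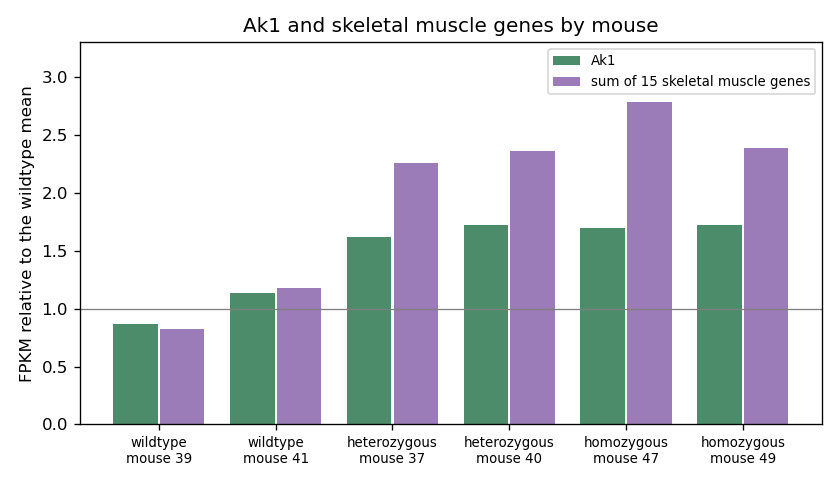
Level of Ak1 (green) and the summed level of 15 skeletal muscle genes (purple) in each mouse, as FPKM divided by the mean of the wildtype mice (vertical axis, from 0; the line marks 1). In the 4 mice with a mutant allele Ak1 is between 1.62 and 1.72 and the muscle sum between 2.26 and 2.79, all above the wildtype mice.

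Against wildtype mice, heterozygous mice had 0 of the 9 genes, and 0% of all tested genes, past the adjusted threshold. The count at an unadjusted p under 0.05 was 949 over all genes. Without adjustment, 7 of the 9 were lower at p under 0.05, where 2.21% of all tested genes were. The log2 fold changes of those 7 ran from -1.19 in Zfp365 (limma adjusted p = 0.248) and -0.90 in Zmat3 (adjusted p = 0.221) to -0.47 in Rps27l (adjusted p = 0.688). Ephx1, which had the largest fall in homozygous mice, stood at -0.84 (adjusted p = 0.235) in heterozygous mice, beside -0.85 in Phlda3 and -0.75 in Dcxr. Ptp4a3 was at 0.34, with a 95% interval from -0.00 to 0.69. This comparison and that of homozygous with wildtype mice use the same 2 wildtype mice.

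Between homozygous and heterozygous mice, 0 of the 9 genes and 0.0145% of all tested genes (2 genes) passed the adjusted test. Ephx1 was nearest to the threshold with a log2 fold change of -1.55 (limma adjusted p = 0.101), a fitted 2.92-fold difference, followed by Phlda3 at -1.15 (adjusted p = 0.181). Zmat3, Dcxr and Zfp365 were between -0.63 and -0.66, Rps27l at -0.50 and Ei24 at -0.41, all with an adjusted p of 0.707. At an unadjusted p under 0.05, 7 of the 9 were lower in homozygous mice, against 4.42% of all tested genes.

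**Figure D3:**
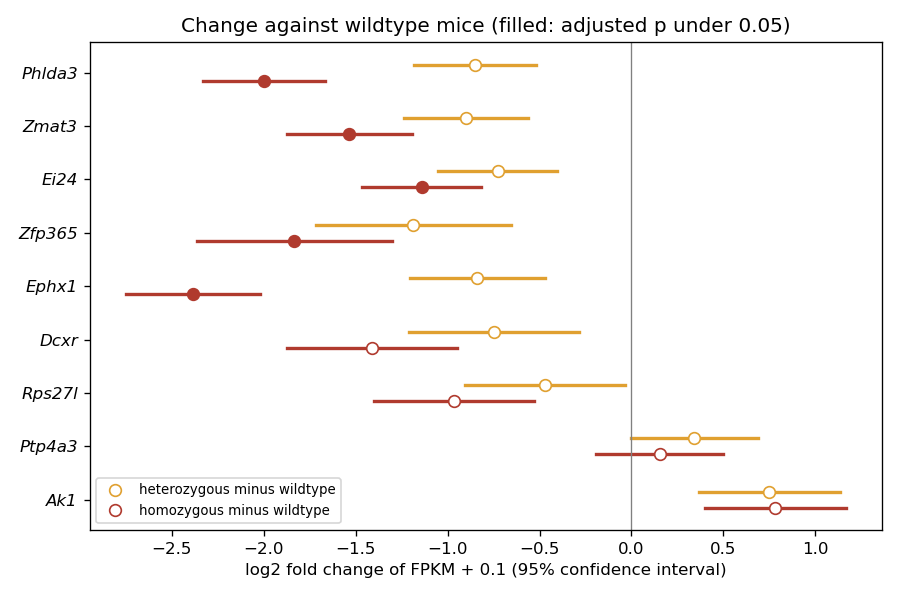
Log2 fold change of FPKM + 0.1 (horizontal axis) of each gene in heterozygous (yellow) and homozygous (red) mice against wildtype mice, with 95% confidence intervals from limma. Filled points passed the adjusted test, and they are the homozygous values of Phlda3, Zmat3, Ei24, Zfp365 and Ephx1. The 2 sets of values share the wildtype mice.

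A fit on the number of R270H alleles asked for a steady change on the log2 scale from 0 to 1 to 2. By it 6 of the 9 genes fell, against 0.333% of all tested genes, while 0.0217% rose and none of the 9 was among them. The change per allele was -1.19 for Ephx1 (SE 0.10, limma adjusted p = 0.0128) and -1.0 for Phlda3 (SE 0.07, adjusted p = 0.00783). Zfp365 fell by 0.92 on the log2 scale per allele, Zmat3 by 0.77, Dcxr by 0.71 (adjusted p = 0.0352) and Ei24 by 0.57. Rps27l was at -0.48 per allele (adjusted p = 0.0822), Ak1 at 0.39 (adjusted p = 0.144) and Ptp4a3 at 0.08 (adjusted p = 0.655). The count of 6 became 0 without mouse 39, 47 or 49, 1 without mouse 40, 2 without mouse 41 and 3 without mouse 37.

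In 7 of the 9 genes, all except Ptp4a3 and Ak1, both wildtype values lay above both heterozygous values and these above both homozygous values. The same order was found in 4.98% of all tested genes (688 genes). The share of the homozygous change, on the log2 scale, that was present in heterozygous mice was 35.2% in Ephx1, 42.5% in Phlda3, 48.8% in Rps27l, 53% in Dcxr, 58.7% in Zmat3, 63.7% in Ei24, 64.7% in Zfp365 and 95.8% in Ak1. Whether heterozygous mice departed from the midpoint of the other genotypes was tested for each gene, and 0 of the 9, and 0% of all tested genes, passed. At an unadjusted p under 0.05 the counts were 2 and 429. The largest departures were 0.36 in Ak1 and 0.35 in Ephx1 (unadjusted p = 0.0386 and 0.0341, adjusted p = 0.980 for both, limma), so the spread of these shares between genes was not shown to be more than error.

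When the 3 genotypes were tested together with limma's F-test, Ephx1 (adjusted p = 0.0340) and Phlda3 (adjusted p = 0.0350) passed, as did 0.101% of all tested genes. Zmat3 followed with an adjusted p of 0.0709. Leaving out any 1 of the 6 mice left 0 of the 9 past this F-test. By an unadjusted F-test p under 0.05 with a change of at least 1.5-fold, which is closer to the criterion of the study's methods, 8 of the 9 were selected, all but Ptp4a3, where 8.31% of all tested genes were.

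The markers of glandular luminal cells, a source of much of the gland's RNA, also summed to less in mutant mice. For 8 such genes, Pbsn among them, the sum was 12594 and 12929 FPKM with 0 mutant alleles, 9658 and 9252 with 1 and 1137 and 8345 with 2. None of the 8 was at 0 in any mouse. Between homozygous and wildtype mice 0 of the 8 passed the adjusted test, and their median log2 fold change was -0.42. At an unadjusted p under 0.05, 3 of the 8 were lower, while 2483 of all 13818 tested genes were lower or higher. In mouse 49, where that sum was 8345 FPKM, the 7 genes with the falling order were below their levels in mouse 47, except Zmat3 and Zfp365. Without mouse 47 the log2 fold changes were -2.45 in Ephx1 (limma adjusted p = 0.0665), -2.10 in Phlda3 (0.0634), -1.81 in Zfp365 (0.203), -1.48 in Zmat3 (0.181), -1.43 in Dcxr (0.293), -1.19 in Ei24 (0.216) and -1.10 in Rps27l (0.298). The changes were thus about as large without it, while no call was left with 1 homozygous mouse, which is assumed to vary like the other groups.

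Other lists of cell markers were checked by their summed levels, as the dissection could differ between mice. In wildtype, heterozygous and homozygous mice respectively, basal epithelial genes summed to 130 and 186, 133 and 135, and 125 and 126 FPKM, and leukocyte genes to 22.0 and 23.6, 30.9 and 25.2, and 14.1 and 34.1 FPKM. In the same order, smooth muscle genes summed to 1685 and 1988, 2317 and 1870, and 2741 and 1880 FPKM. Adipocyte genes summed to 290 and 220, 235 and 312, and 368 and 437 FPKM, so both homozygous mice were above all others. Tested from these lists were 4 basal, 7 smooth muscle, 6 adipocyte and 4 leukocyte genes. Between homozygous and wildtype mice limma called 0 of them. The log2 fold change was above 0 in all 7 smooth muscle genes and in 5 of the 6 adipocyte genes. It was also above 0 in 2 of the 4 basal and 2 of the 4 leukocyte genes, and its median over all tested genes was -0.04. At an unadjusted p under 0.05, 1 basal gene was lower and 1 basal, 1 smooth muscle and 2 adipocyte genes were higher. Of all 13818 tested genes, 2483 were at such a p, lower or higher. Seminal vesicle genes summed to 3493 FPKM in wildtype mouse 39 and to 35209 to 64608 FPKM in the others. Of the 8, limma called 1 lower, Svs2, which was listed at 0 in both homozygous mice. In mouse 47 Svs4 and Svs5 were also listed at 0, where the other mice had at least 1331 and 1731 FPKM. Svs6 was at 26147 FPKM in mouse 47 and at most 1021 FPKM in the others. Why these genes were listed at 0 was not tested. The part of the listed cell types in the results above was not tested either.

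A further 32 well known p53 targets, such as Cdkn1a, Mdm2 and Bax, gave the wider response in the same mice. Of 29 that could be tested, 13 fell in homozygous mice and 0 rose, against 0.261% and 0.123% of all tested genes. Of the 29, 23 were below 0, and the median log2 fold change was -1.10. These targets were chosen with earlier results of these data known, so their counts are not an independent check. The largest fall was in the death receptor gene Eda2r (-4.21, limma adjusted p = 0.0128), and the highest value was that of Tigar, a regulator of glycolysis (0.60, adjusted p = 0.248). The most abundant were Perp, a desmosomal protein gene (-0.58, adjusted p = 0.219), and Ccng1, which encodes cyclin G1 (-1.91, adjusted p = 0.0291). In heterozygous mice 0 of the 29 passed limma's test, and their median was -0.72. At an unadjusted p under 0.05, 19 of the 29 were lower, as were 2.21% of all tested genes. In the order of all these genes, Ephx1 and Phlda3 lay between Aen (-2.49) and Bax (-1.93), short of Cdkn1a (-4.0).

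**Figure D4:**
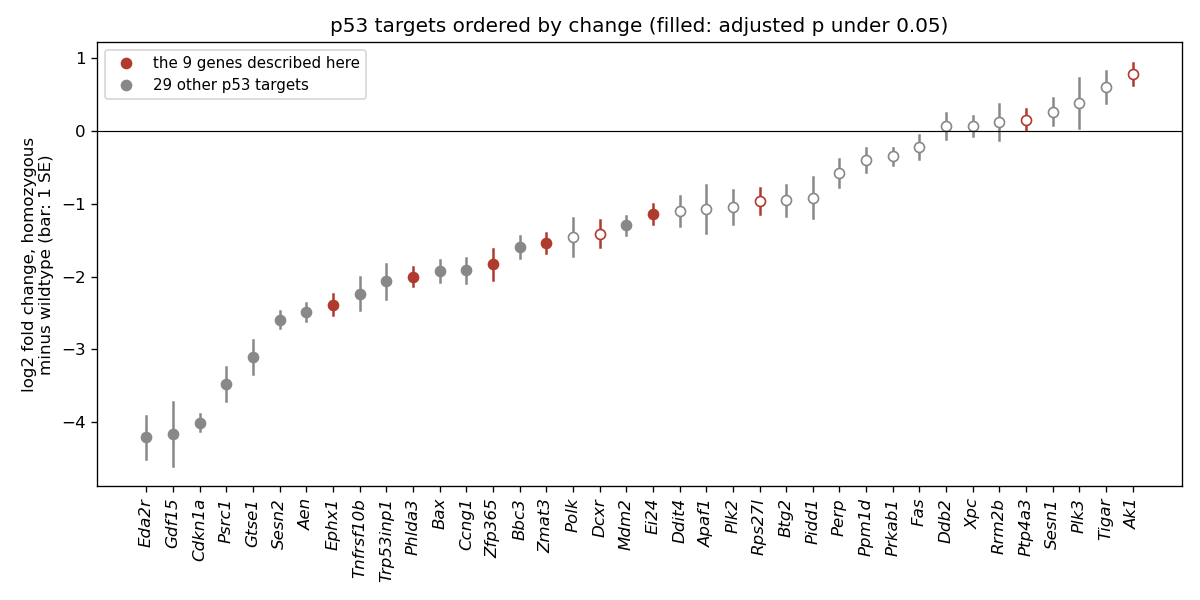
Log2 fold change in homozygous against wildtype mice (vertical axis) of the 9 genes (red) and of 29 other p53 targets (grey), ordered by size, with bars of 1 SE. Filled points passed the adjusted test. Values run from -4.21 in Eda2r to 0.78 in Ak1, and 7 of the 9 red points and 23 of the 29 grey points lie below 0.

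Close relatives in the same protein families served as a contrast. Of 21 relatives, 15 were expressed enough to be tested, with a median log2 fold change of -0.05 in homozygous mice. Limma called 0 of them. At an unadjusted p under 0.05 there was 1 (Ephx2), against 2483 of all 13818 tested genes. Phlda1 and Phlda2 were at -0.22 and -0.33, Zmat2 at -0.12, Ptp4a1 and Ptp4a2 at -0.01 and -0.08, and Ak3 at 0.02. Ephx2, the soluble epoxide hydrolase, had a value opposite in sign to that of Ephx1. Wildtype mice had 2.63 and 2.67 FPKM of it, heterozygous mice 5.45 and 5.78, and homozygous mice 13.8 and 6.73, a log2 fold change of 1.82 that did not pass (limma adjusted p = 0.111). Cbr2, a carbonyl reductase related to Dcxr, was at 0.46 (adjusted p = 0.622).

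Ephx1 and enzymes of its kind are also known as targets of NRF2, the regulator of the antioxidant response. Of 12 NRF2 targets 11 were tested, and 0 were called in homozygous mice. At an unadjusted p under 0.05, 1 was lower (Hmox1) and 1 higher (Gsta4), against 2483 of all 13818 tested genes lower or higher. The log2 fold changes of the 11 had a median of -0.05 and ran from -0.55 in Hmox1 to 1.055 in Gsta4, and that of Ephx1 was -2.39. The part of NRF2 in the Ephx1 values was not tested.

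The patterns across the 6 mice most like those of the 5 genes that fell were sought among 8948 other named genes with a mean of at least 5 FPKM, by Pearson's r of log2(FPKM + 0.1). The 6 points are the same libraries for all genes and fall into 3 genotypes, so a high r is a description only. Phlda3 was closest to Aen (r = 0.999), Bbc3 and Mgmt, and Zmat3 to Mdm2 (r = 0.998), Ccng1 and Trim11. Ephx1 was closest to Crcp (r = 0.998), Cdkn1a and Aen. For Ei24, Mlec (r = 0.995) and Ccng1 were among the 3 most alike, and Zfp365 was closest to Smu1 (r = 0.999), Bcl2l2 and Chd1l. This measure ignores size, since Crcp and Smu1 had log2 fold changes of -0.44 and -0.14 in homozygous mice where Aen had -2.49.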

How the data were processed

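Whole prostates were snap-frozen, and the authors prepared stranded mRNA libraries, aligned reads to mm10 with HISAT and quantified genes with Cufflinks and Cuffnorm. The deposited values are FPKM per gene and mouse, normalised by the authors for length and mapped fragments. Tool versions and the annotation are not given in the sources used here. Fragment counts are not part of FPKM, and the methods state only a minimum number of reads for all samples, so the exact depth per mouse and the counting error of a value are unknown. All 6 files hold the same 47719 identifiers.

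The 9 genes and all gene lists were chosen with earlier results of these data known. Named are all 9 genes, Trp53, the family relatives, up to 4 genes of each other list (the lowest and highest log2 fold change and the 2 most abundant), and the 3 genes most alike in pattern to each gene called, while other genes were named after their values were seen. Some genes that this rule names are not reported here. Genes with a mean of at least 1 FPKM were tested on log2(FPKM + 0.1) with limma 3.58.1 in R 4.3.3 (lmFit, eBayes with an intensity trend, 3 residual and 2.77 prior degrees of freedom). All 3 genotypes shared 1 estimate of the spread, and p-values were adjusted by Benjamini-Hochberg. All tests were two-sided. With 2 mice per genotype an exact permutation test of a single gene cannot go below p = 0.333, so none is given. The fit was tested on simulated data. Alternatives were a pseudocount of 1 or 0.01, no filter, a mean of at least 5 FPKM, quantile normalisation, median scaling, no intensity trend, an ordinary test per gene, and leaving out each mouse. The ordinary test used log2(FPKM) without a pseudocount, over the 19130 genes above 0 in every mouse. Positions are from GENCODE M21 on GRCm38 and promoter windows from RefSeq (GRCm38.p6), searched on both strands for the p53 response element consensus. The Python version was 3.11.15, with numpy 2.4.6, pandas 2.3.3, biopython 1.88 and matplotlib 3.10.9. The labels name no litter or batch.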

Additional observations from a re-analysis of the deposited data

How the results depend on the processing

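The 9 genes kept their direction in homozygous against wildtype mice under all 14 alternatives (13 for Zfp365, whose mean lies below 5 FPKM). With heterozygous against wildtype mice included, 250 log2 fold changes were recomputed and 0 reversed. Only the homozygous values of the 5 genes called could lose the adjusted threshold, and 40 of those values did. With 2 mice per genotype the calls were less stable than the values. The count of 5 genes called was 0 with no filter, 3 with quantile normalisation, 3 without the intensity trend, 0 by the ordinary test and 0 to 2 with a mouse left out. For the fit on allele number the count of 6 was 1 with no filter, 3 with quantile normalisation, 0 by the ordinary test, 4 without the trend and 0 to 3 with a mouse left out. For the F-test the count of 2 was 0 with no filter, with quantile normalisation, without the trend, by the ordinary test and without any mouse. Heterozygous against wildtype and homozygous against heterozygous mice gave 0 of the 9 under every alternative, as did the midpoint test. Over all genes, 53 were called between homozygous and wildtype mice, against 4 with no filter, 23 without the trend, 0 by the ordinary test and 4 to 96 with a mouse left out. The fit on allele number called 49 genes in all, against 10 with no filter, 27 with quantile normalisation, 32 without the trend, 0 by the ordinary test and 0 to 19 with a mouse left out. The F-test called 14, against 3, 4, 9, 0 and 0 to 9 in the same order. With no filter 26087 genes were tested. The causes of the lost calls were not tested. Over the alternatives, some with another pseudocount or none, the log2 fold changes ranged from -2.54 to -2.23 in Ephx1 and -2.10 to -1.86 in Phlda3. The ranges were -1.93 to -1.28 in Zfp365, -1.65 to -1.38 in Zmat3 and -1.26 to -1.0 in Ei24. Ephx1 was called under 9 of 14 alternatives and Phlda3 under 8. Median scaling moved the median of all genes by at most 0.02. No paired analysis was possible because the animal numbers are not shared between genotypes.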
